A study of Arabidopsis thaliana with 44 samples.

Results

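Roots of Arabidopsis thaliana plants that carry the tpst-1 mutation were compared with and without the peptide PSY5. The comparison uses the root libraries labelled with tpst-1 and PSY5 (n = 3) and those labelled tpst-1 alone (n = 3), which makes 6 of the 44 libraries of the series, and it covers every gene in them. Both groups are of genotype tpst-1 and 7 days of age, and the treated group received PSY5 at 1 uM. The labels do not say when the peptide was added to these plants or for how long, how many plants were pooled, or what separates the replicates, so the p-values measure only the spread between these libraries, which may be technical. All 6 libraries are from plants mutant in TPST, and no wild-type root library was analysed here, so that label could not be checked. The other groups used beside them are tpst/psyr1,2,3 roots (n = 3), tpst-1 shoots with and without 1 uM PSY5 (n = 4 each), and whole tpst-1 seedlings before PSY5 and after 24 h and 7 d of it (n = 3 each).

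PSY peptides are small secreted signals of plants. They are cut from precursor proteins and carry a sulfate on a tyrosine, which the single Arabidopsis tyrosylprotein sulfotransferase TPST adds. Plants without TPST lack active PSY peptides along with the other tyrosine-sulfated peptides: phytosulfokine, which promotes cell expansion, the root growth factors RGF, which maintain the root meristem, and the CIF peptides, which guide the Casparian strip of the endodermis. Adding 1 peptide to tpst-1 plants therefore returns 1 signal while the other sulfated peptides stay missing. PSYR1, PSYR2 and PSYR3 are leucine-rich repeat receptor kinases of PSY peptides. Without the peptide these receptors are known to activate stress responses, and binding of the peptide is known to switch this activity off.

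Each root library held 3.207 to 4.134 M assigned reads (M, 1e6 reads), against 8.61 to 16.82 M in the 35 other libraries. Pairs of replicates correlated across genes at r = 0.951 to 0.956 on the log2 scale, and the common biological coefficient of variation was 0.0588. All 29 loci of the root tissue marker list passed the filter on low values, and 9 rose and 3 fell with PSY5. Transcripts of the nuclear photosynthesis list summed to 432.8 to 518.9 TPM (transcript share of a library, scaled per length) in the 6 root libraries and to 104400 to 142900 TPM in shoots. Chloroplast reads made up 0.004918 to 0.008148% of reads in tpst-1 roots and 0.002431 to 0.003201% with PSY5, with no overlap. Of the 47 photosynthesis genes tested, 5 rose and 2 fell, and RBCS1A, the small subunit of Rubisco, fell from 10.06, 11.9 and 16.8 TPM to 4.501, 1.40 and 5.58 TPM (log2 change -1.53 ± 0.44 in edgeR, adjusted p = 0.0182). That call was lost in 6 of 20 other settings, DESeq2 and limma among them. The part of shoot tissue in the results was not tested. In whole-root RNA, fewer cells of a type and less RNA per cell cannot be told apart.

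With PSY5, 1500 of 19958 tested genes rose and 1535 fell at an adjusted p below 0.05 (edgeR quasi-likelihood test, Benjamini-Hochberg adjustment), which is 15.2% of the genes in either direction, 7.52% up and 7.69% down. Falls were the larger changes: 607 genes (3.04%) fell by more than 2-fold and 244 (1.22%) rose by more than 2-fold. The 3 values of one group lay wholly above those of the other in 5875 genes (29.4%). Lists of genes are described below by how many members rose and fell, to be read against 7.52% and 7.69%, and by their median log2 fold change, to be read against 0.0018 over all tested genes. Rises outnumbered falls in the lists of glucosinolate synthesis, sulfate assimilation, water channels, marneral and thalianol synthesis and the Casparian strip. Falls outnumbered rises in the lists of iron uptake, stress transcription factors, jasmonate, touch, cytokinin and the cell cycle. Changes are on the log2 scale, with ± the standard error of the edgeR fit.

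**Figure D1:**
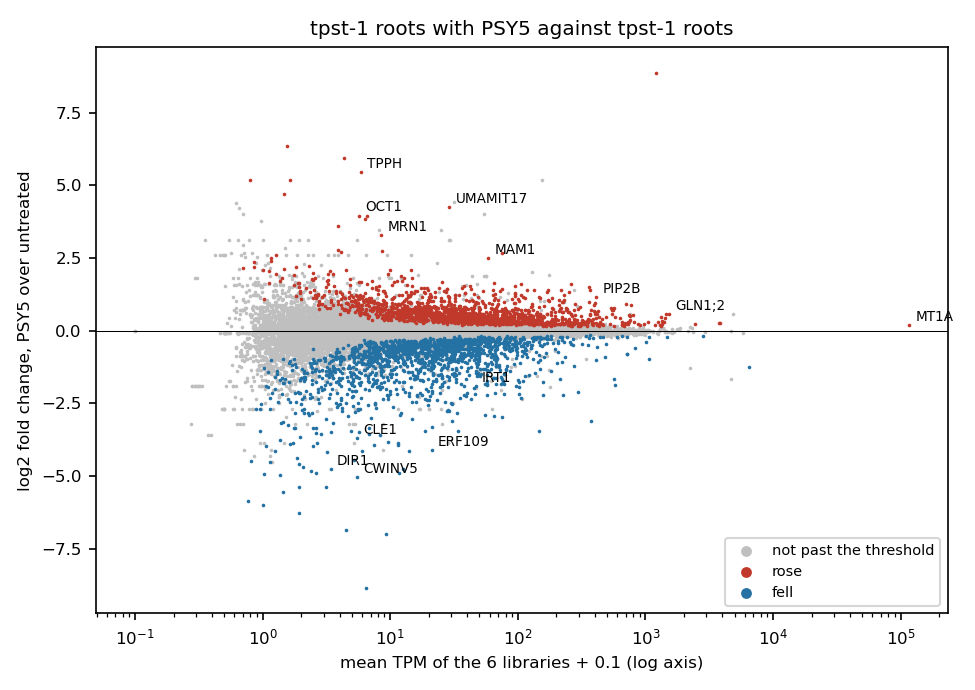
Level and change of each tested gene in tpst-1 roots. The horizontal axis is the mean TPM over the 6 libraries + 0.1 (log axis), the vertical axis the log2 fold change with PSY5 over tpst-1, and colours mark the 1500 genes that rose and the 1535 that fell. More called genes lie below a log2 change of -1 (607) than above 1 (244).

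Among genes of the peptide pathway itself, the sulfotransferase gene and the receptor genes did not pass the test. TPST stood at 12.1, 7.87 and 8.75 TPM in tpst-1 roots and at 7.205, 9.92 and 9.79 TPM with PSY5 (log2 change -0.09 ± 0.17 in edgeR, adjusted p = 0.803), with overlapping values, and its transcript was thus listed above 0 in all 6 libraries. PSYR1 was at or near 1 TPM in the 6 libraries and was not tested. PSYR2 was at 6.87, 5.76 and 6.17 TPM and then 8.22, 8.35 and 7.02 TPM (0.34 ± 0.13, adjusted p = 0.0787), and PSYR3 at 18.01, 19.4 and 19.7 TPM and then 22.2, 17.0 and 17.99 TPM (0.02 ± 0.09, adjusted p = 0.912). The precursor gene PSY1 had 34.5, 36.3 and 41.3 TPM and 35.6, 13.7 and 18.3 TPM (-0.72 ± 0.29, adjusted p = 0.104). The changes that did pass were in the other sulfated peptide systems. PSK1, a phytosulfokine precursor gene, fell from 60.2, 59.0 and 64.1 TPM to 39.3, 31.2 and 18.6 TPM (log2 change -0.9999 ± 0.20 in edgeR, adjusted p = 0.000939), and the phytosulfokine receptor gene PSKR2 fell (-0.78 ± 0.12, adjusted p = 4.3e-05). CIF2, the precursor gene of a Casparian strip integrity factor, rose from 257, 232 and 217 TPM to 323, 322 and 332 TPM (log2 change 0.53 ± 0.08 in edgeR, adjusted p = 4.76e-05), and RGF4, a root growth factor gene, rose as well (1.38 ± 0.29, adjusted p = 0.00154). In all, 4 of the 24 tested genes of the pathway rose and 4 fell.

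Taken over all genes that fell, 2 short words stood before gene starts more often than over all genes that rose. The words are TTGACC or TTGACT, the core of the W-box that WRKY factors bind, and CGCGTT, known as a rapid stress response element bound by calmodulin-binding CAMTA factors, each searched on both strands in the 250 bases before the annotated start of 19881 tested genes. Either W-box word was in 28.4% of all promoters, in 24% of those of genes that rose, in 37.7% of those that fell and in 43.9% of those that fell by more than 2-fold. CGCGTT was in 2.84% of all, 1.47% of the genes that rose, 6.01% of those that fell and 8.58% of those that fell by more than 2-fold. Shares of the G-box word CACGTG lay between 6.98% and 7.88% in the same sets, and those of the GCC-box word GCCGCC between 1.67% and 2.48%. The telo-box word AAACCCTA was in 3.65% of all, 1.54% of the genes that rose and 2.09% of those that fell, and the evening element AAAATATCT in 2.4%, 2.27% and 2.68%. Single lists differed: a W-box word was in 13 of the 29 WRKY genes tested and in 6 of the 34 ERF and DREB genes, and CGCGTT was in 0 of the 37 ZAT, MYB and NAC genes. The words searched do not contain one another, a match describes the letters only, and the shares were not tested. Promoters of 5 genes that fell are shown to give the arrangement of these words, chosen after their values were seen: TCH2 and PHI-1 of touch and growth responses, the zinc finger gene SZF1, the AP2-type gene AT1G19210 and WRKY17. They are read 5′ to 3′ on the gene's strand from assembly TAIR10.1 of RefSeq, end at the base before the annotated start, and have in capitals the W-box words, CGCGTT and CACGTG on either strand.
TCH2: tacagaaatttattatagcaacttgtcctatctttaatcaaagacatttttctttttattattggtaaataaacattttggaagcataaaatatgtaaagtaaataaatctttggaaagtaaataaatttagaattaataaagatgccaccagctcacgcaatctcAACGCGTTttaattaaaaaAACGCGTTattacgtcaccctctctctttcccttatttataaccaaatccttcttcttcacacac
SZF1: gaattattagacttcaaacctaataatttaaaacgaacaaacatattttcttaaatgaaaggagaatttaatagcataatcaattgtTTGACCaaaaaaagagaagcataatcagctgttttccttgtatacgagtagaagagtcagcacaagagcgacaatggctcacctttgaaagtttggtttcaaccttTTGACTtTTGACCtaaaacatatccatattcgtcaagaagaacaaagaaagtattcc
PHI-1: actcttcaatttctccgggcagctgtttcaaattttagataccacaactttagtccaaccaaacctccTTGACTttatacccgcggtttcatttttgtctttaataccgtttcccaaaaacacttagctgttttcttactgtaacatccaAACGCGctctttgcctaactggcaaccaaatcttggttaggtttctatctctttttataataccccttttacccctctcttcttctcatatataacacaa
AT1G19210: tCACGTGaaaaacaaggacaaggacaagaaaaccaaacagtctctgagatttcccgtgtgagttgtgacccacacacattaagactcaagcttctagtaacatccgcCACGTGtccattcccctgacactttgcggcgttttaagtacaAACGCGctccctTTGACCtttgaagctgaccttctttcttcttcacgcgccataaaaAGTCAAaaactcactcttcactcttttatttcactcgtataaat
WRKY17: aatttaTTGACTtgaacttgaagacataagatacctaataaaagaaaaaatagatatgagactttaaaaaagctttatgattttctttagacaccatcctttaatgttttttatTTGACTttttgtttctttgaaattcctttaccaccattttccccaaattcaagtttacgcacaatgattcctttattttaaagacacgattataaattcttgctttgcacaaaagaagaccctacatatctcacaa

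The promoter of TCH2 lies at chr5:14999620-14999869 on the minus strand, and CGCGTT starts there 4 times, in pairs that overlap on opposite strands 84 and 82 bases and 65 and 63 bases before the gene. SZF1 (chr3:20775970-20776219 on the plus strand) has TTGACC at 163 and 50 bases and TTGACT at 57, and WRKY17 (chr2:10439470-10439719 on the minus strand) has TTGACT at 244 and 136. PHI-1 (chr1:12851733-12851982 on the plus strand) has TTGACT at 182 bases and CGCGTT on the other strand at 100. AT1G19210 (chr1:6627689-6627938 on the minus strand) has CACGTG at 249 and 143 bases, CGCGTT on the other strand at 101, TTGACC at 89 and TTGACT on the other strand at 44.

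The rises of greatest size included genes of transport and of specialised metabolism, several of them under 4 TPM without the peptide. TPPH, a trehalose-phosphate phosphatase gene (chromosome 4, 18448865 to 18451305, TAIR10.1), had 0, 0 and 0.672 TPM in the 3 tpst-1 libraries and 10.3, 13.4 and 10.2 TPM with PSY5 (log2 change 5.47 ± 0.51 in edgeR, adjusted p = 5.17e-08). UMAMIT17 rose from 2.80, 2.22 and 3.73 TPM to 51.4, 55.1 and 57.6 TPM (log2 change 4.26 ± 0.15 in edgeR, adjusted p = 1.12e-14), and its chromosomal neighbour UMAMIT20 from 0.994, 1.07 and 2.91 TPM to 8.63, 7.47 and 5.22 TPM (log2 change 2.106 ± 0.35 in edgeR, adjusted p = 0.000122). Both belong to a family of amino acid exporters and lie on chromosome 4, at 5244865 to 5248394 and 5238773 to 5241112. OCT1, an organic cation and carnitine transporter gene, rose from 0.320, 1.18 and 0.512 TPM to 10.3, 11.6 and 9.56 TPM (log2 change 3.97 ± 0.29 in edgeR, adjusted p = 8.39e-10). These genes were picked from called genes whose groups do not overlap, so every treated library was above every untreated one. AT2G16005, annotated as a protein with an MD-2-related lipid recognition domain, reached the highest level among them, from 20.6, 14.7 and 25.8 TPM to 158, 126 and 103 TPM (2.69 ± 0.19, adjusted p = 8.06e-10). The lipid-transfer family gene AT1G62510 (3.96), the cupin gene AT5G38910 (2.78), the phosphoglycerate mutase family gene AT5G04120 (2.76), the defensin-like gene AT4G22214 (2.71), the cytochrome P450 gene CYP716A2 (2.104), AT5G52790 (2.09) and the uncharacterized AT5G62330 (3.84) also rose on the log2 scale. AT5G50640 rose by 3.599, but its near-identical copy AT5G50650 was at 20.3, 0 and 17.7 TPM in tpst-1 and at or near 0 with PSY5, so which of the 2 genes the reads came from is uncertain.

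The greatest falls joined sugar and nitrogen genes with stress regulators. CWINV5, a cell wall invertase gene, which splits sucrose outside the cell, fell from 10.3, 10.01 and 11.4 TPM to 0.196, 0.182 and 0.429 TPM (log2 change -5.04 ± 0.34 in edgeR, adjusted p = 2.64e-10). ASN1, the dark- and starvation-induced asparagine synthetase, fell from 10.15, 16.9 and 14.1 TPM to 2.24, 0.3496 and 0.558 TPM (log2 change -3.94 ± 0.35 in edgeR, adjusted p = 1.86e-08). DIR1, a lipid-transfer protein of systemic resistance, fell from 7.44, 7.37 and 4.53 TPM to 0.563, 0 and 0 TPM (log2 change -4.75 ± 0.78 in edgeR, adjusted p = 0.00015), and the chitinase family gene AT2G43620 from 22.8, 17.81 and 23.4 TPM to 1.88, 1.45 and 0.960 TPM (log2 change -3.87 ± 0.27 in edgeR, adjusted p = 5.82e-10). CLE1, which encodes a CLAVATA3-type peptide, fell from 13.5, 7.70 and 9.03 TPM to 1.47, 0.712 and 0 TPM (log2 change -3.69 ± 0.62 in edgeR, adjusted p = 0.000141). These 5 genes were picked by the same rule, so treated libraries lay below all untreated ones in them. Over the treated group CWINV5 had 5.02 reads, CLE1 3.01 and DIR1 1.00. AT3G46880, an uncharacterized gene at 15.9, 20.3 and 18.21 TPM without PSY5, had no read in the treated libraries and was at least 16.7-fold lower, taking 3 reads over the group as the limit. AT5G53486 (-4.88), AT1G07175 (-4.75), the lipid-transfer family gene AT4G22470 (-4.44), AT5G52760 (-4.13) and the MATE efflux gene AT5G52050 (-3.93) fell on the log2 scale too.

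**Figure D2:**
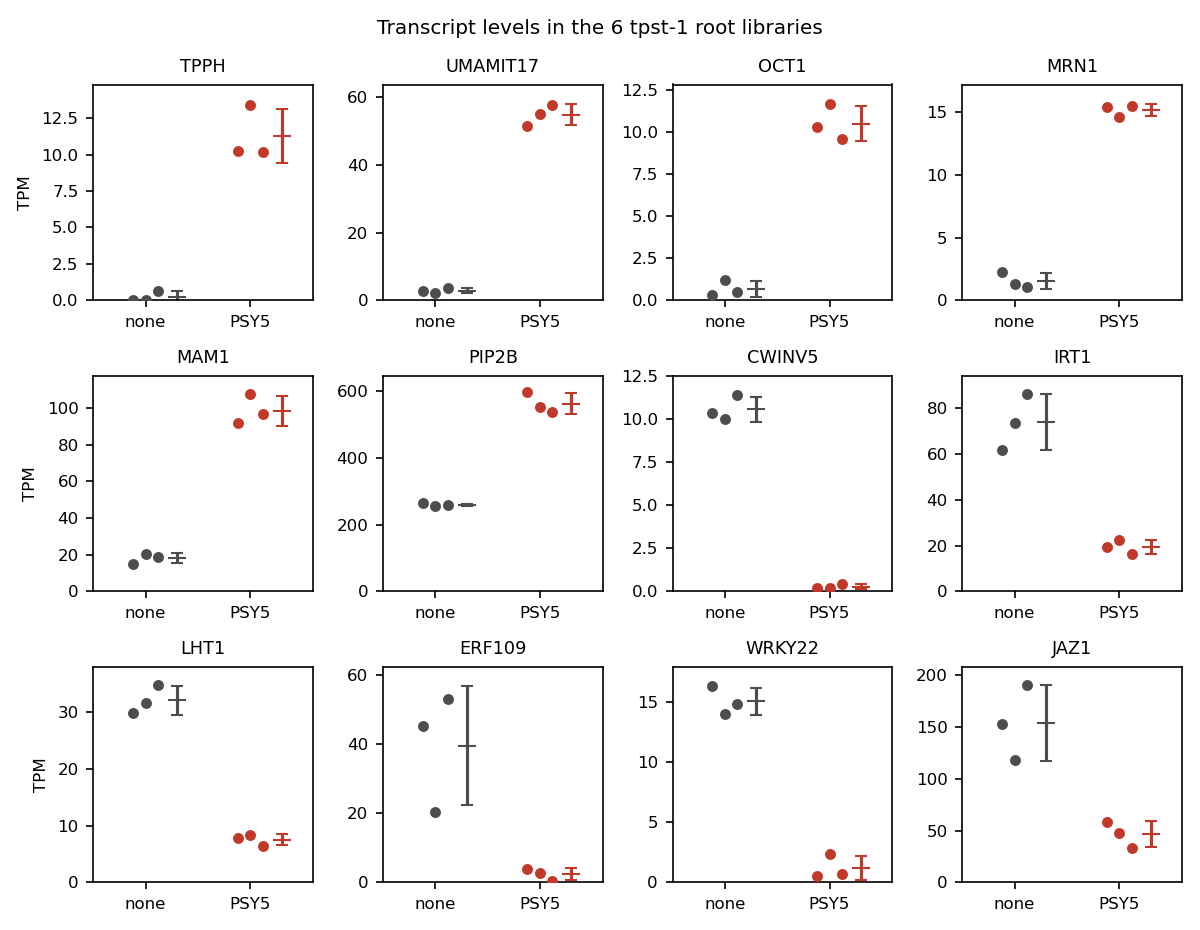
Level of 12 genes in each of the 3 tpst-1 and 3 PSY5-treated root libraries, in TPM (1 point per library, bars the group mean ± SD). No gene shown has overlapping groups, which the naming rule required of those among the largest rises and falls. IRT1, for example, was at 61.8, 73.7 and 86.2 TPM without and 19.4, 22.6 and 16.4 TPM with PSY5.

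Synthesis of aliphatic glucosinolates, the methionine-derived sulfur compounds that deter herbivores in the cabbage family, rose at the entry, in chain elongation and in the core steps. Of 28 tested genes 21 rose, 4 fell, and the median was 0.90. The regulator MYB28, known to switch on the pathway, was among those that rose (0.64 ± 0.10, adjusted p = 3.46e-05). At the entry, BCAT4, the aminotransferase for methionine, rose from 122, 139 and 132 TPM to 376, 396 and 409 TPM (log2 change 1.62 ± 0.07 in edgeR, adjusted p = 2.4e-13). The chain-elongating synthases MAM1 and MAM3 lie near each other on chromosome 5 (7703041 to 7706973 and 7718118 to 7721866). MAM1 rose from 14.9, 20.12 and 18.8 TPM to 91.5, 107 and 96.4 TPM (log2 change 2.498 ± 0.11 in edgeR, adjusted p = 3.82e-13) and MAM3 from 113, 134 and 117 TPM to 302, 312 and 332 TPM (log2 change 1.41 ± 0.07 in edgeR, adjusted p = 1.38e-12). Core-structure enzymes followed, with CYP79F2 going from 54.8, 52.6 and 59.4 TPM to 139, 134 and 128 TPM (log2 change 1.299 ± 0.07 in edgeR, adjusted p = 2.1e-12) and CYP83A1 from 89.8, 102 and 93.5 TPM to 207, 209 and 199.5 TPM (log2 change 1.14 ± 0.07 in edgeR, adjusted p = 1.73e-11). None of these overlapped between groups, which the naming rule required of MAM1. The 4 that fell were GTR1 (-0.87 ± 0.17, adjusted p = 0.00102) and GTR2 (-0.75 ± 0.08, adjusted p = 1.83e-07), which import glucosinolates into cells, and FMOGS-OX2 (-2.73) and FMOGS-OX5 (-0.44), which modify their side chains. MYB28, GTR1, GTR2 and the FMOGS-OX genes were singled out after their values were seen.

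The tryptophan-derived branch had fewer calls. Of 27 tested genes for indolic glucosinolates and camalexin, 8 rose (3 to 9 over the settings run) and 4 fell (median 0.18). PAD3, the last enzyme of the antimicrobial compound camalexin, fell from 62.6, 71.2 and 63.9 TPM to 31.1, 30.6 and 32.0 TPM (log2 change -1.04 ± 0.09 in edgeR, adjusted p = 2.69e-08), and the indole glucosinolate hydroxylase CYP81F1 from 41.9, 37.2 and 40.7 TPM to 22.5, 24.1 and 26.8 TPM (log2 change -0.66 ± 0.10 in edgeR, adjusted p = 6.25e-05). GSTF9, a glutathione transferase and one of the most abundant transcripts, rose from 1104, 1182 and 1181 TPM to 1689, 1719 and 1745 TPM (log2 change 0.59 ± 0.06 in edgeR, adjusted p = 9.35e-08).

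Sulfate assimilation, which supplies the sulfur of glucosinolates, cysteine and glutathione, rose at its first steps. Of 34 genes 12 rose and 2 fell (median 0.17). The ATP sulfurylase genes led: APS4 rose from 30.6, 31.2 and 33.6 TPM to 97.0, 91.9 and 104 TPM (log2 change 1.65 ± 0.08 in edgeR, adjusted p = 1.59e-12) and APS1 from 129.8, 143 and 143 TPM to 310.1, 312 and 329 TPM (log2 change 1.23 ± 0.06 in edgeR, adjusted p = 2.66e-12). APR1, which reduces activated sulfate, rose from 109, 116 and 118 TPM to 208, 200.1 and 203 TPM (log2 change 0.87 ± 0.06 in edgeR, adjusted p = 5.88e-10), and SULTR2;1, a sulfate transporter of the vasculature, from 29.05, 26.7 and 32.8 TPM to 58.6, 55.3 and 62.6 TPM (log2 change 1.03 ± 0.10 in edgeR, adjusted p = 1.15e-07). All 4 genes were higher in every treated library. GGCT2;1, which breaks down glutathione, went the other way, from 34.0, 29.5 and 35.2 TPM to 7.51, 6.73 and 10.3 TPM (log2 change -1.95 ± 0.19 in edgeR, adjusted p = 7.22e-08).

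Genes for taking up iron from the soil were among the falls. Of 32 genes for iron uptake and coumarins 16 fell and 4 rose (median -0.43). FRO2, the ferric chelate reductase, was at 22.2, 28.7 and 29.6 TPM without and 3.91, 6.74 and 4.02 TPM with PSY5 (log2 change -2.43 ± 0.17 in edgeR, adjusted p = 3.19e-10). IRT1, the iron transporter, went from 61.8, 73.7 and 86.2 TPM to 19.4, 22.6 and 16.4 TPM (log2 change -1.89 ± 0.13 in edgeR, adjusted p = 3.99e-10), and CYP82C4, which makes the coumarin sideretin, from 25.6, 28.4 and 33.4 TPM to 6.06, 6.86 and 5.75 TPM (log2 change -2.20 ± 0.15 in edgeR, adjusted p = 4.13e-10). Each treated library lay below each untreated library in these 3 genes. FRD3, which loads citrate for the transport of iron in the xylem, rose from 20.5, 17.77 and 23.0 TPM to 41.5, 46.2 and 44.7 TPM (log2 change 1.14 ± 0.10 in edgeR, adjusted p = 1.04e-08). The copper list held no gene that fell and 8 of 22 that rose (median 0.20), and no member had an unadjusted p below 0.05 in the downward direction, nor was any called lower by DESeq2 or limma. FRO4, a copper reductase gene that both lists hold, rose from 13.4, 9.94 and 12.9 TPM to 30.1, 29.5 and 25.4 TPM (log2 change 1.26 ± 0.12 in edgeR, adjusted p = 4.11e-08), and COPT2, a copper transporter gene, from 93.3, 92.1 and 113 TPM to 133, 135 and 126 TPM (log2 change 0.44 ± 0.10 in edgeR, adjusted p = 0.00268). Of the iron storage genes, 2 of 13 rose, VTL5 (0.58 ± 0.08, adjusted p = 1.62e-05) and the ferritin gene FER1 (0.54 ± 0.08, adjusted p = 2.83e-05), and 2 fell.

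Rises were the more frequent call among nitrogen genes. Of 29 genes for nitrate and ammonium 11 rose and 2 fell (median 0.09). The high-affinity nitrate transporter gene NRT2:1 fell from 17.96, 22.05 and 23.3 TPM to 3.73, 2.34 and 2.70 TPM (log2 change -2.82 ± 0.19 in edgeR, adjusted p = 2.41e-10), whereas NRT1.1, the dual-affinity transporter and nitrate sensor, rose from 190.5, 183 and 220.0 TPM to 406, 329.7 and 353 TPM (log2 change 0.91 ± 0.07 in edgeR, adjusted p = 8.54e-10). AMT1;2, an ammonium transporter of inner root tissues, rose from 66.8, 72.6 and 67.3 TPM to 159.9, 141 and 147 TPM (log2 change 1.15 ± 0.06 in edgeR, adjusted p = 5.18e-12), and GLN1;2, a glutamine synthetase, from 1202, 1161 and 1341 TPM to 1918, 1776 and 1742 TPM (log2 change 0.59 ± 0.06 in edgeR, adjusted p = 1.03e-07). In these 4 genes the groups did not overlap. Of 32 amino acid transport genes 12 rose and 4 fell (median 0.14). LHT1, which takes up amino acids from the soil, fell from 29.7, 31.5 and 34.7 TPM to 7.85, 8.25 and 6.47 TPM (log2 change -2.06 ± 0.14 in edgeR, adjusted p = 3.9e-10), and GDU3, of the glutamine dumper family of amino acid export, rose from 38.2, 36.3 and 33.0 TPM to 84.1, 88.9 and 102 TPM (log2 change 1.41 ± 0.11 in edgeR, adjusted p = 5.43e-09). UMAMIT12 and UMAMIT33 rose by 1.07 ± 0.11 and 1.49 ± 0.19 log2 units.

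Genes of sugar use were divided. Of 18 trehalose-phosphate genes 4 rose and 3 fell; beside TPPH, the phosphatase gene TPPB rose from 27.9, 20.6 and 19.8 TPM to 52.9, 53.5 and 56.0 TPM (log2 change 1.2998 ± 0.11 in edgeR, adjusted p = 1.52e-08) and TPPI from 7.61, 3.56 and 3.96 TPM to 21.1, 17.64 and 10.03 TPM (log2 change 1.67 ± 0.29 in edgeR, adjusted p = 0.000179), while TPPG fell (-0.60 ± 0.12, adjusted p = 0.000775). Of 26 genes of invertases, sucrose synthases and sugar transport 3 rose and 6 fell, among them the sucrose synthase SUS4 (-0.67 ± 0.11, adjusted p = 9.31e-05) and the sucrose transporter SUC1 (-0.61 ± 0.10, adjusted p = 0.000111). Of 16 genes known for sugar starvation and senescence 6 fell and 2 rose (median -0.46). DIN10, a dark-inducible raffinose synthase-like gene, fell from 43.7, 54.4 and 54.9 TPM to 13.9, 11.7 and 17.7 TPM (log2 change -1.77 ± 0.12 in edgeR, adjusted p = 2.4e-10), and the regulator MYB2 from 5.30, 5.32 and 6.89 TPM to 0.937, 0 and 0 TPM (log2 change -4.17 ± 0.61 in edgeR, adjusted p = 2.64e-05). In phosphate starvation 6 of 25 rose and 2 fell, led by the malate channel gene ALMT1, which went from 19.2, 16.4 and 22.5 TPM to 38.5, 35.5 and 41.4 TPM (log2 change 1.04 ± 0.11 in edgeR, adjusted p = 3.85e-07).

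The triterpenes of the marneral and thalianol gene clusters are made in roots. In the list of these clusters and other terpene genes, 7 of 8 tested genes rose and 1 fell (median 0.60), and 5 of the 13 loci were too low to test. BARS1 fell from 1.85, 1.74 and 1.84 TPM to 0.145, 0 and 0 TPM (log2 change -4.91 ± 0.73 in edgeR, adjusted p = 5.21e-05), and was singled out after its values were seen. The 3 genes of the marneral cluster on chromosome 5 rose together. The synthase MRN1 (17053453 to 17058245) rose from 2.26, 1.31 and 1.08 TPM to 15.4, 14.6 and 15.5 TPM (log2 change 3.2996 ± 0.18 in edgeR, adjusted p = 5.79e-12), the oxidase MRO from 15.3, 15.2 and 16.7 TPM to 38.2, 43.1 and 35.6 TPM (log2 change 1.34 ± 0.11 in edgeR, adjusted p = 7.93e-09) and CYP705A12 from 2.89, 4.98 and 4.05 TPM to 15.6, 14.6 and 14.5 TPM (log2 change 1.94 ± 0.19 in edgeR, adjusted p = 6.97e-08). The thalianol genes THAS1 (0.40 ± 0.06) and THAD (0.59 ± 0.07), which stand at over 100 TPM, rose by less. All 5 of these rising genes were higher in every treated library, which the naming rule required of MRN1.

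The endodermis is the cell layer whose Casparian strip and suberin seal the vascular core. Of 15 Casparian strip genes 8 rose and 1 fell (median 0.70). SGN1, the kinase that relays the CIF signal, rose from 13.4, 13.1 and 15.7 TPM to 27.4, 30.8 and 32.9 TPM (log2 change 1.16 ± 0.12 in edgeR, adjusted p = 1.95e-07), the membrane scaffold gene CASP1 from 52.0, 47.4 and 46.9 TPM to 86.7, 90.9 and 91.4 TPM (log2 change 0.92 ± 0.10 in edgeR, adjusted p = 2.66e-07), and ESB1, needed to place lignin in the strip, from 49.5, 31.4 and 36.8 TPM to 74.7, 73.5 and 66.6 TPM (log2 change 0.90 ± 0.12 in edgeR, adjusted p = 8.14e-06). The groups did not overlap in these 3 genes. MYB36, the transcription factor that activates CASP genes, was the one that fell, from 20.05, 19.4 and 22.8 TPM to 13.8, 16.1 and 12.7 TPM (log2 change -0.52 ± 0.14 in edgeR, adjusted p = 0.0146), and was singled out after its values were seen. Of 24 suberin genes 9 rose (5 to 9 over the settings run) and 1 fell (median 0.24); ASFT, the feruloyl transferase of suberin, rose from 102, 100.1 and 105 TPM to 164, 168 and 154 TPM (log2 change 0.70 ± 0.06 in edgeR, adjusted p = 3e-08). Of 25 monolignol genes 12 rose (7 to 13) and 2 fell (median 0.28). PAL4 rose by 1.35 ± 0.11 and HCT by 0.55 ± 0.06 log2 units, while the stress-linked CCR2 and its regulator MYB15 fell by 1.12 and 3.09 on the log2 scale.

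Aquaporins, the water channels of the plasma membrane and vacuole, rose more often than they fell. Of 27 genes 14 rose and 4 fell (median 0.34), and the summed level of the list went from 4205 to 4360.3 TPM in tpst-1 libraries to 6571 to 6829 TPM with PSY5. PIP2B rose from 263, 256 and 259 TPM to 599, 551 and 538 TPM (log2 change 1.15 ± 0.05 in edgeR, adjusted p = 6.14e-13), PIP2A from 506, 474 and 489 TPM to 955, 901 and 893 TPM (log2 change 0.94 ± 0.05 in edgeR, adjusted p = 1.59e-12), and the vacuolar TIP1;1 from 569, 548 and 555 TPM to 962, 1010.3 and 1009 TPM (log2 change 0.87 ± 0.05 in edgeR, adjusted p = 5.24e-11). Their 3 treated libraries were each above their 3 untreated ones. Near-identical members such as PIP2B and PIP2;3 can exchange reads.

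Falls were more frequent among wall-loosening genes. Of 20 expansin genes 7 fell and 3 rose (median -0.16), with EXPA4 going from 298, 329 and 284 TPM to 141, 129 and 153 TPM (log2 change -1.06 ± 0.07 in edgeR, adjusted p = 2.96e-10) and EXPA1 from 101, 110.2 and 102 TPM to 50.8, 53.2 and 58.5 TPM (log2 change -0.87 ± 0.08 in edgeR, adjusted p = 6.97e-08). Of 26 XTH genes, which cut and rejoin xyloglucan, 10 fell and 5 rose, and the sign of their median changed with the processing. XTH7 fell from 30.5, 35.1 and 35.8 TPM to 6.56, 5.29 and 6.98 TPM (log2 change -2.38 ± 0.16 in edgeR, adjusted p = 3.39e-10), and XTH5 rose from 21.7, 21.8 and 17.1 TPM to 36.0, 35.4 and 38.2 TPM (log2 change 0.90 ± 0.11 in edgeR, adjusted p = 3.07e-06). Of 15 cellulose synthesis genes 2 rose and none fell by edgeR, DESeq2, limma or an unadjusted p below 0.05. Of 32 root hair genes 12 rose (median 0.35) and none was called lower by edgeR, DESeq2 or limma, although 2 had an unadjusted p below 0.05 in that direction and 1 was called lower without tpst-1 replicate 2 or without PSY5 replicate 1. Among them PRX73, a root hair peroxidase, went from 87.2, 80.5 and 76.4 TPM to 135, 128 and 126 TPM (log2 change 0.70 ± 0.07 in edgeR, adjusted p = 1.82e-07) and LRX1, a wall protein of hairs, from 21.4, 17.77 and 16.1 TPM to 30.1, 22.3 and 30.5 TPM (log2 change 0.62 ± 0.11 in edgeR, adjusted p = 0.000353). Of 36 genes of the stem cell niche and meristem 4 rose and 3 fell, and the falls included the root cap regulators BRN1, from 27.7, 29.1 and 31.2 TPM to 11.9, 13.7 and 13.5 TPM (log2 change -1.13 ± 0.14 in edgeR, adjusted p = 4.15e-06), and BRN2 (-1.06 ± 0.21, adjusted p = 0.000923).

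More cell cycle genes fell than rose. Of 54 genes 13 fell and 2 rose (median -0.21), but DESeq2 called only 6 lower. CYCD3;1, a cyclin of the entry into division, fell from 44.0, 49.1 and 44.5 TPM to 23.9, 17.0 and 22.8 TPM (log2 change -1.08 ± 0.11 in edgeR, adjusted p = 2.31e-07), and CYCD6;1, of formative divisions in the ground tissue, from 7.56, 9.71 and 8.30 TPM to 3.52, 2.62 and 1.76 TPM (log2 change -1.61 ± 0.30 in edgeR, adjusted p = 0.00045). SIM, an inhibitor of cyclin-dependent kinases, rose from 51.1, 58.9 and 47.1 TPM to 78.7, 71.5 and 96.0 TPM (log2 change 0.70 ± 0.14 in edgeR, adjusted p = 0.000735). Cytokinin, which CYCD3;1 is known to respond to, had 11 of 35 genes lower and 1 higher (median -0.29). CYP735A2, which makes trans-zeatin, fell from 16.1, 14.4 and 19.99 TPM to 6.53, 4.53 and 4.68 TPM (log2 change -1.69 ± 0.18 in edgeR, adjusted p = 3.62e-07). The cytokinin-degrading CKX1 (-1.83 ± 0.23) and CKX7 (-1.87 ± 0.27) and the response regulators ARR4 (-0.70 ± 0.09) and ARR5 (-1.23 ± 0.16) fell as well, so synthesis, breakdown and response genes were all among the falls. Of 48 auxin genes 6 rose and 9 fell (median -0.18), with the repressor gene IAA27 at -0.85 ± 0.10 and the auxin synthesis gene YUC6 at 0.81 ± 0.12. In gibberellin and brassinosteroid 7 of 39 rose and 7 fell. GASA1, a gibberellin-regulated small protein gene, rose from 209, 195 and 205 TPM to 534, 540.4 and 506 TPM (log2 change 1.41 ± 0.07 in edgeR, adjusted p = 9.86e-13).

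**Figure D3:**
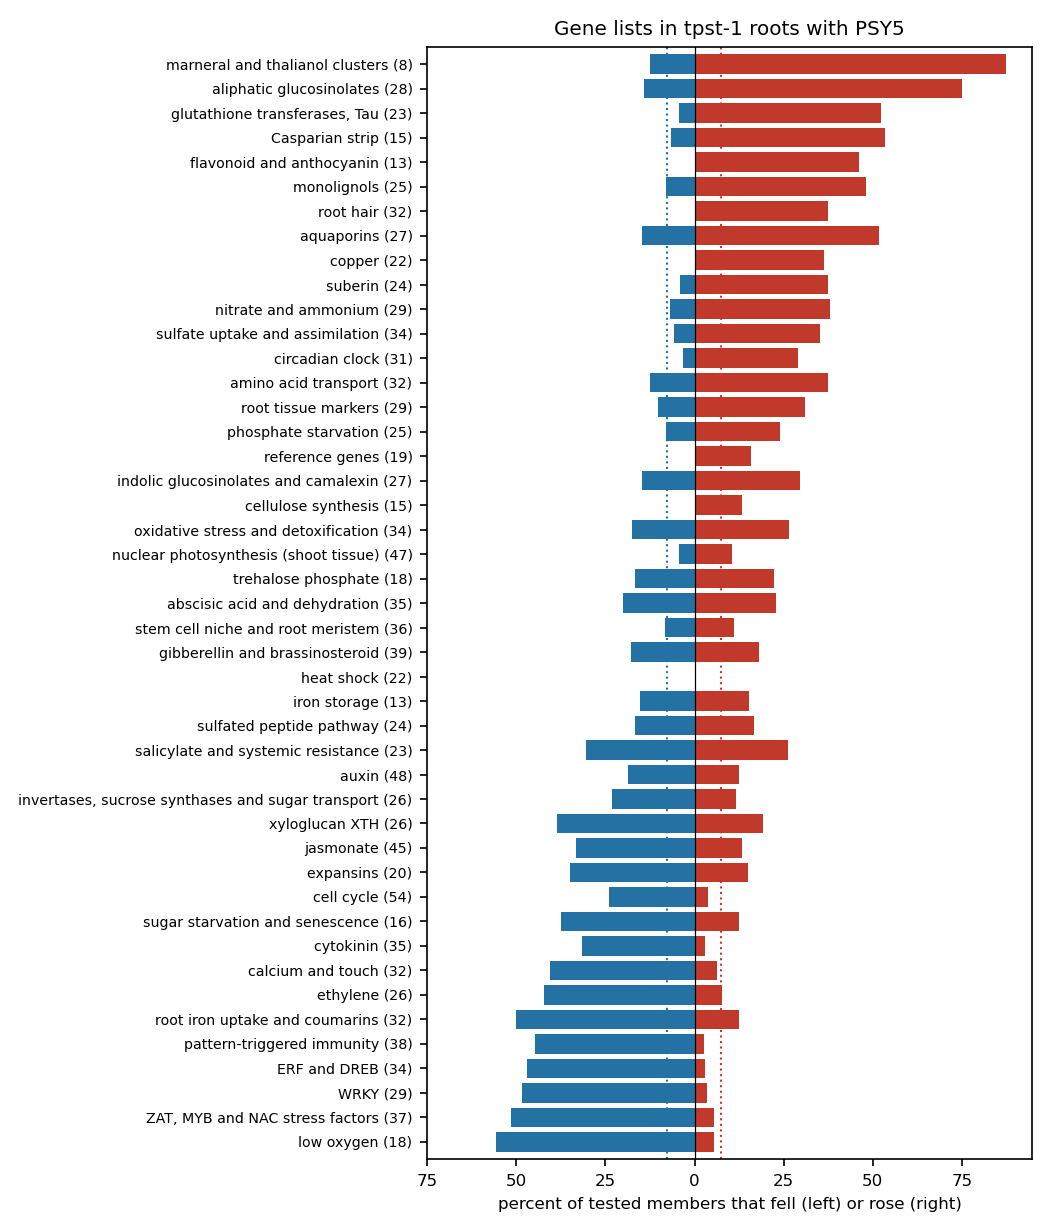
Members of each gene list that rose (to the right) and fell (to the left) with PSY5 in tpst-1 roots, as a share of the members tested, with the shares over all tested genes (7.52% and 7.69%) as lines. Aliphatic glucosinolates (21 of 28 up) and the stress factor families (14 of 29 WRKY down) lie far from these lines.

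Many transcription factors of stress responses fell. Of 29 WRKY genes 14 fell and 1 rose (median -0.83), of 34 ERF and DREB genes 16 fell and 1 rose (median -0.85), and of 37 ZAT, MYB and NAC stress factors 19 fell and 2 rose (median -0.85). WRKY40, a gene of the pathogen and wound response, fell from 41.3, 17.85 and 55.0 TPM to 6.16, 3.67 and 1.76 TPM (log2 change -3.32 ± 0.36 in edgeR, adjusted p = 3.97e-07). WRKY22, which acts in immune signalling, fell from 16.3, 14.0 and 14.8 TPM to 0.572, 2.39 and 0.662 TPM (log2 change -3.59 ± 0.32 in edgeR, adjusted p = 3.03e-08), and WRKY17 from 111, 92.8 and 97.6 TPM to 44.3, 43.3 and 37.4 TPM (log2 change -1.24 ± 0.09 in edgeR, adjusted p = 6.51e-10). ORA47, an activator of jasmonate synthesis, fell from 28.4, 14.7 and 35.4 TPM to 2.84, 0.884 and 0.738 TPM (log2 change -4.14 ± 0.41 in edgeR, adjusted p = 1.02e-07), and ERF109, of wound and redox responses, from 45.4, 20.3 and 53.2 TPM to 3.90, 2.81 and 0.467 TPM (log2 change -4.09 ± 0.40 in edgeR, adjusted p = 1.13e-07). AT1G19210 fell from 22.4, 8.70 and 22.4 TPM to 0.978, 2.73 and 0 TPM (log2 change -3.84 ± 0.59 in edgeR, adjusted p = 4.9e-05). MYB77 was lowered by 2.47 ± 0.24 and SZF1 by 2.16 ± 0.27 log2 units, the latter from 135, 86.3 and 160.1 TPM to 45.3, 25.9 and 14.4 TPM. None of these genes had overlapping groups, which the naming rule required of ORA47, ERF109 and AT1G19210. The replicates of most were uneven in a shared way, while WRKY22 and WRKY17 were more even without PSY5.

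The unevenness had the same order in most stress genes. Over the WRKY, ERF and DREB, ZAT, jasmonate, immunity and touch lists together, 94 entries fell, and in 87 of them (92.6%) tpst-1 replicate 2 was the lowest of the 3 untreated libraries, against 38.1% of all tested genes and 54.2% of all genes that fell. Replicate 3 of the treated roots was the lowest treated library in 72 of the 94 (76.6%), against 34.1% of all tested genes. In 88 of the 94 the groups did not overlap, against 1471 of all 1535 genes that fell. Without tpst-1 replicate 2, 14 WRKY, 16 ERF and DREB and 19 ZAT, MYB and NAC genes fell, and over all libraries left out in turn the counts were 13 to 14, 14 to 17 and 15 to 19. The part of this shared order in the results was not tested.

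Genes listed for jasmonate, the wound hormone, fell more often than they rose. Of 45 genes 15 fell (11 to 17 over the settings run) and 6 rose (1 to 8), and the sign of the median changed with the processing. JAZ1, a repressor that jasmonate itself induces, fell from 152, 118 and 190.4 TPM to 57.9, 48.1 and 33.4 TPM (log2 change -1.70 ± 0.18 in edgeR, adjusted p = 2.42e-07), the master regulator MYC2 from 83.0, 51.0 and 94.5 TPM to 37.3, 31.3 and 21.8 TPM (log2 change -1.32 ± 0.17 in edgeR, adjusted p = 5.4e-06) and VSP2, a marker of the response, from 8.60, 8.32 and 11.3 TPM to 2.69, 0.756 and 1.47 TPM (log2 change -2.49 ± 0.33 in edgeR, adjusted p = 7.8e-06). LOX1, a lipoxygenase gene whose place in jasmonate synthesis was not checked, fell by less (-0.53 ± 0.07). OPR1, a reductase related to the jasmonate enzyme, rose (0.57 ± 0.06, adjusted p = 8.26e-08). For salicylate the list was balanced, with 6 of 23 up (3 to 7 over the settings run) and 7 down (3 to 7). The receptor gene NPR3 fell from 63.4, 45.0 and 84.4 TPM to 32.5, 28.7 and 25.3 TPM (log2 change -1.12 ± 0.15 in edgeR, adjusted p = 1.27e-05), and the minor isochorismate synthase gene ICS2 rose from 8.90, 9.05 and 8.08 TPM to 20.16, 21.2 and 19.2 TPM (log2 change 1.28 ± 0.13 in edgeR, adjusted p = 1.61e-07).

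Calls among immune signalling and touch genes were mostly falls. Of 38 genes of pattern-triggered immunity 17 fell and 1 rose (median -0.46). The apoplastic peroxidase gene PRX34, abundant in roots, fell from 591, 626 and 691 TPM to 377, 306 and 310.5 TPM (log2 change -0.91 ± 0.07 in edgeR, adjusted p = 2.9e-09), the NADPH oxidase RBOHD, which makes the oxidative burst, from 61.0, 45.8 and 75.4 TPM to 28.3, 21.5 and 24.8 TPM (log2 change -1.26 ± 0.13 in edgeR, adjusted p = 1.82e-07) and PHI-1 from 47.5, 34.4 and 69.8 TPM to 10.3, 6.23 and 5.63 TPM (log2 change -2.77 ± 0.25 in edgeR, adjusted p = 2.68e-08). LYK5, a chitin receptor, fell by 2.22 ± 0.27 log2 units. Of 32 calcium and touch genes 13 fell and 2 rose (median -0.35). TCH2, a calmodulin-like gene induced by touch, fell from 264, 239.9 and 322 TPM to 156, 139.5 and 82.0 TPM (log2 change -1.11 ± 0.15 in edgeR, adjusted p = 1.21e-05), TCH4 (XTH22, a wall enzyme, picked after its values were seen) from 89.8, 63.1 and 139 TPM to 22.1, 11.8 and 6.14 TPM (log2 change -2.88 ± 0.29 in edgeR, adjusted p = 1.91e-07) and CML38 from 41.0, 28.3 and 51.5 TPM to 13.2, 6.75 and 6.94 TPM (log2 change -2.14 ± 0.32 in edgeR, adjusted p = 3.37e-05). Their treated libraries were all below the untreated ones.

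Other stress pathways were lower in part. Of 26 ethylene genes 11 fell (6 to 11 over the settings run) and 2 rose (median -0.25). ACS6, which makes the ethylene precursor, fell from 121, 84.3 and 135 TPM to 49.1, 37.8 and 21.1 TPM (log2 change -1.65 ± 0.22 in edgeR, adjusted p = 6.69e-06). Of 18 low-oxygen genes 10 fell and 1 rose (median -0.59). The phytoglobin gene HB1 fell from 90.3, 84.2 and 68.7 TPM to 33.2, 39.9 and 34.4 TPM (log2 change -1.14 ± 0.14 in edgeR, adjusted p = 2.16e-06) and the alcohol dehydrogenase ADH1 from 7.70, 8.96 and 9.52 TPM to 3.91, 3.62 and 2.68 TPM (log2 change -1.34 ± 0.24 in edgeR, adjusted p = 0.000314); tpst-1 replicate 2 was the lowest untreated library in 2 of these 10. Abscisic acid and dehydration genes were split, with 8 of 35 up and 7 down: COR47, a dehydrin gene, rose (0.70 ± 0.06) and CYP707A3, which degrades abscisic acid, fell (-2.54 ± 0.31). None of 22 heat shock genes was called in either direction by edgeR, DESeq2 or limma with all libraries, and 5 were lower at an unadjusted p below 0.05. Without PSY5 replicate 3, or with no filter, 4 were called lower, and without tpst-1 replicate 3 none was called lower, 1 was called higher and the median went from -0.21 to 0.04. HSP101, a heat shock chaperone gene picked after its values were seen, was at 9.37, 8.27 and 28.3 TPM in the 3 tpst-1 libraries, with replicate 3 the highest.

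Rises prevailed among detoxification genes. Of 23 tau-class glutathione transferase genes, which conjugate toxic compounds, 12 rose and 1 fell (median 0.46). GSTU26 rose from 61.8, 61.9 and 71.0 TPM to 141, 144 and 126 TPM (log2 change 1.105 ± 0.10 in edgeR, adjusted p = 1.79e-08), and GSTU19, at the highest level of the class here, from 1155, 1087 and 1088 TPM to 1408, 1654 and 1486 TPM (log2 change 0.48 ± 0.06 in edgeR, adjusted p = 2.29e-06). GSTU20 rose by 1.01 ± 0.08, and it is also in the aliphatic glucosinolate list. Of 34 oxidative stress genes 9 rose and 6 fell; CAT2, a catalase, rose (0.53 ± 0.06) and OXI1, a kinase of oxidative signalling, fell (-1.05 ± 0.16). In the flavonoid and anthocyanin list, which holds enzymes and regulators, 6 of 13 tested genes rose (3 to 8 over the settings run). CHS, the first enzyme, went from 718, 678 and 615 TPM to 772, 779.8 and 759 TPM (log2 change 0.24 ± 0.05 in edgeR, adjusted p = 0.0026), a call lost with limma. No tested gene fell by edgeR, DESeq2, limma or an unadjusted p below 0.05. DFR, at 15.1 reads over the tpst-1 group and 3.01 over the PSY5 group, was too low to test, as were LDOX and UF3GT. AT2G43570, counted under the symbol CHI, is 1 of the 13 and was not called. Whether it is the flavonoid enzyme chalcone isomerase was not checked, so that step may be missing from the list. Among clock genes, which set daily rhythms, 9 of 31 rose and 1 fell, and limma on log2(TPM + 5) called 3 higher. Of 19 reference genes 3 rose, UBQ10 by 0.32 ± 0.05, ACT2 by 0.24 ± 0.05 and ACT8 by 0.18 ± 0.05 log2 units (the last lost its call in 5 of 20 other settings), and none fell by edgeR, DESeq2, limma or an unadjusted p below 0.05.

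Changes were under 1 log2 unit in 9 of the 10 most abundant called genes. AT2G01021 fell by 1.26 ± 0.21, and its effective length in the files was 4 bases. The metallothionein gene MT1A took 10.6 to 12.8% of all TPM in these libraries with an effective length of 5 bases in the files, which inflates its TPM and scales that of other genes, while the tests used reads. It rose by 0.20 ± 0.06 log2 units, MT1C by 0.25 ± 0.05, and MT2B fell by 0.19 ± 0.06. The extensin gene EXT3, a structural protein of the wall, rose from 3624, 3183 and 3781 TPM to 4249, 3866 and 4361 TPM (log2 change 0.27 ± 0.06 in edgeR, adjusted p = 0.00111). The peroxidase gene AT3G32980 rose by 0.43 ± 0.06 and the dehydrin family gene AT1G54410 fell by 0.20 ± 0.06. Of 20 other settings, the call was lost in 7 for AT1G54410, 4 for MT2B, 3 for EXT3 and 2 for MT1A.

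The root libraries labelled tpst/psyr1,2,3, for loss of the PSY receptors, share the tpst-1 control libraries with this comparison, so the values are only set side by side. PSYR3 was at 56.9, 63.9 and 60.7 TPM in them against 18.01, 19.4 and 19.7 TPM in tpst-1 roots (log2 change 1.59 ± 0.08 in edgeR, adjusted p = 3.11e-12), so its transcript was higher there. PSYR2 was lower there than in tpst-1 roots (log2 change -1.44 ± 0.17 in edgeR, adjusted p = 1.14e-06). PSYR1 was at 0.450, 0.453 and 0.302 TPM there against 1.26, 0.966 and 0.892 TPM, and its change was not tested. Whether these transcripts are whole was not tested. In those roots 3073 genes (15.4%) were called against tpst-1, 7.9% higher and 7.5% lower. UMAMIT17 was at 50.9, 50.7 and 50.8 TPM there, MAM1 at 108, 129.9 and 117 TPM, FRO2 at 6.57, 8.23 and 6.63 TPM, WRKY40 at 5.11, 5.72 and 2.58 TPM and JAZ1 at 53.8, 72.4 and 39.7 TPM. The direct test of treated roots against these libraries called 107 genes (0.536%), 44 higher (0.22%) and 63 lower (0.316%) with PSY5, and leaving out single libraries gave 47 to 141. Of the 22 copper genes 6 were higher and 1 was lower with PSY5: FRO5 was higher with PSY5 by 1.86 ± 0.31 (adjusted p = 0.00321) and COPT2 by 0.80 ± 0.10 (adjusted p = 0.000229) log2 units, and CSD1, a superoxide dismutase gene picked after its values were seen, was lower (-0.45 ± 0.09, adjusted p = 0.0139). APS4 (-0.62 ± 0.07, adjusted p = 4.75e-05), SULTR2;1 (-0.59 ± 0.09, adjusted p = 0.00108), MRN1 (-0.68 ± 0.11, adjusted p = 0.00125) and XTH7 (-1.07 ± 0.19, adjusted p = 0.00641) were lower with PSY5 than in the libraries labelled tpst/psyr1,2,3, and GLN1;2 (0.40 ± 0.06, adjusted p = 0.000618) and AMT1;2 (0.34 ± 0.06, adjusted p = 0.0035) were higher. PSYR2 was at 2.93, 1.91 and 2.28 TPM in the libraries labelled tpst/psyr1,2,3, and it was higher (1.79 ± 0.16) and PSYR3 lower (-1.56 ± 0.08) in treated roots than in them.

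Shoots were given the same peptide. There 1069 of 20723 genes (5.16%) were called, 273 up and 796 down, but limma on log2(TPM + 1) called 312 up and 265 down. Of the genes that rose in roots, 1217 were tested in shoots, where 51 rose (1.32% of all tested genes did) and 53 fell (3.84% did). Of those that fell in roots, 1320 were tested, and 265 fell and 24 rose. Across the 17877 genes tested in both, which share neither libraries nor depth, the log2 fold changes had r = 0.155 and rho = 0.011. Among the 21 aliphatic glucosinolate genes that rose in roots 1 rose in shoots (median -0.09). Of the 16 ERF and DREB genes that fell in roots, 14 of 15 tested fell in shoots (median -2.64), as did 8 of 10 iron uptake genes (median -1.45). The shoot count itself depended on single libraries and ranged from 546 to 1655 when each was left out.

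The size of the response differed between roots and shoots in 767 of 23144 genes (3.31%), 487 (2.1%) with a higher and 280 (1.21%) with a lower log2 change in roots. limma on log2(TPM + 1) called 1227, of which 33.7% were higher in roots, against 63.5% of the 767. The labels name 2 library kits without assigning them to samples, so a difference of kit between the tissues cannot be told apart from one of tissue. UMAMIT17 changed by 4.26 in roots and 0.18 in shoots (difference 4.11 ± 0.31, adjusted p = 2.88e-09). For ASN1 the values were -3.94 and -0.31 (difference -3.62 ± 0.75, adjusted p = 0.00504). ORA47 fell in both, by 4.14 and 4.29 on the log2 scale, and its difference of 0.17 ± 0.87 did not pass (adjusted p = 1).

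**Figure D4:**
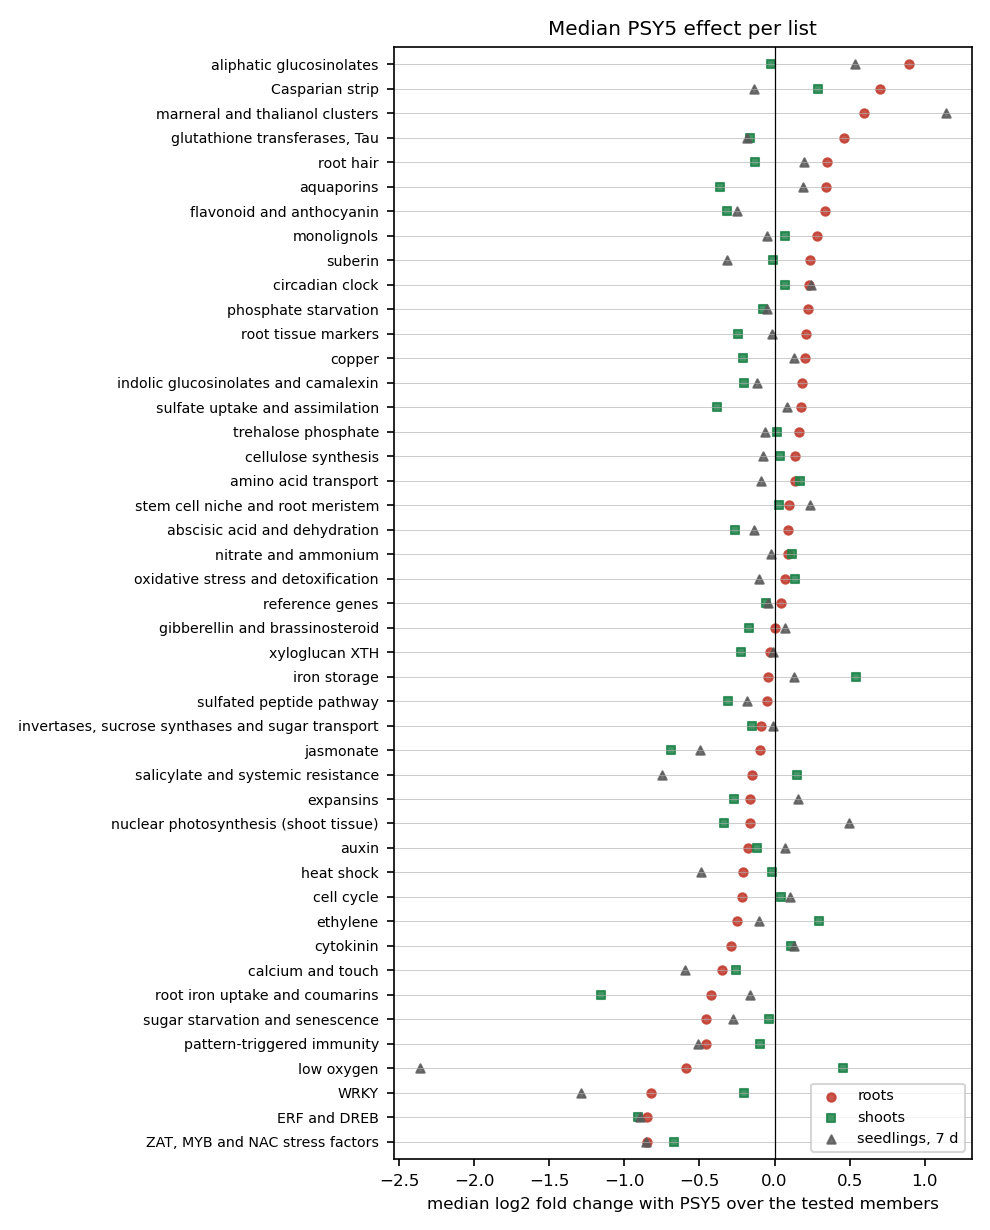
Median log2 fold change of each gene list with PSY5 in tpst-1 roots, in tpst-1 shoots and after 7 d in tpst-1 seedlings, over the members tested in each. Aliphatic glucosinolates had a median of 0.90 in roots, -0.02 in shoots and 0.54 in seedlings, and low-oxygen genes -0.59, 0.46 and -2.36.

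Whole seedlings were sampled after 7 d of PSY5. There 4082 of 21069 genes (19.4%) were called, 8.53% up and 10.8% down. Of the genes that rose in roots, 320 of 1385 tested rose in seedlings and 136 fell, and of those that fell, 595 of 1429 fell and 64 rose. The 24 h libraries, which share the untreated seedlings with the 7 d comparison, called 14.1% of genes, 5.43% up and 8.63% down, among them 189 of the genes that rose in roots and 564 of those that fell. Across 18400 genes r was 0.275 at 7 d and 0.266 at 24 h, as a description over libraries of different depth. Of the 21 aliphatic glucosinolate genes that rose in roots, 18 rose at 7 d (median 0.59) and 16 at 24 h. MAM1 went from 105 ± 7.52 to 152 ± 6.72 TPM (SD, n = 3; log2 change 0.51 ± 0.09 in edgeR, adjusted p = 0.000153) in seedlings, and UMAMIT17 from 2.05 ± 0.897 to 6.74 ± 0.728 TPM (log2 change 1.73 ± 0.26 in edgeR, adjusted p = 4.25e-05). PIP2B rose there too (log2 change 0.75 ± 0.08 in edgeR, adjusted p = 9.62e-07). Of the 14 WRKY genes that fell in roots 13 of 14 fell at 7 d (median -1.50), WRKY40 by 2.36 ± 0.15 log2 units. LHT1 (-1.48 ± 0.11) and DIN10 (-1.52 ± 0.11) fell in both, while GASA1, which rose in roots, had a log2 fold change of -0.18 ± 0.09 (adjusted p = 0.186) in seedlings. Of the 8 Casparian strip genes that rose in roots, 0 rose and 1 fell at 7 d among 7 tested.

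**Figure D5:**
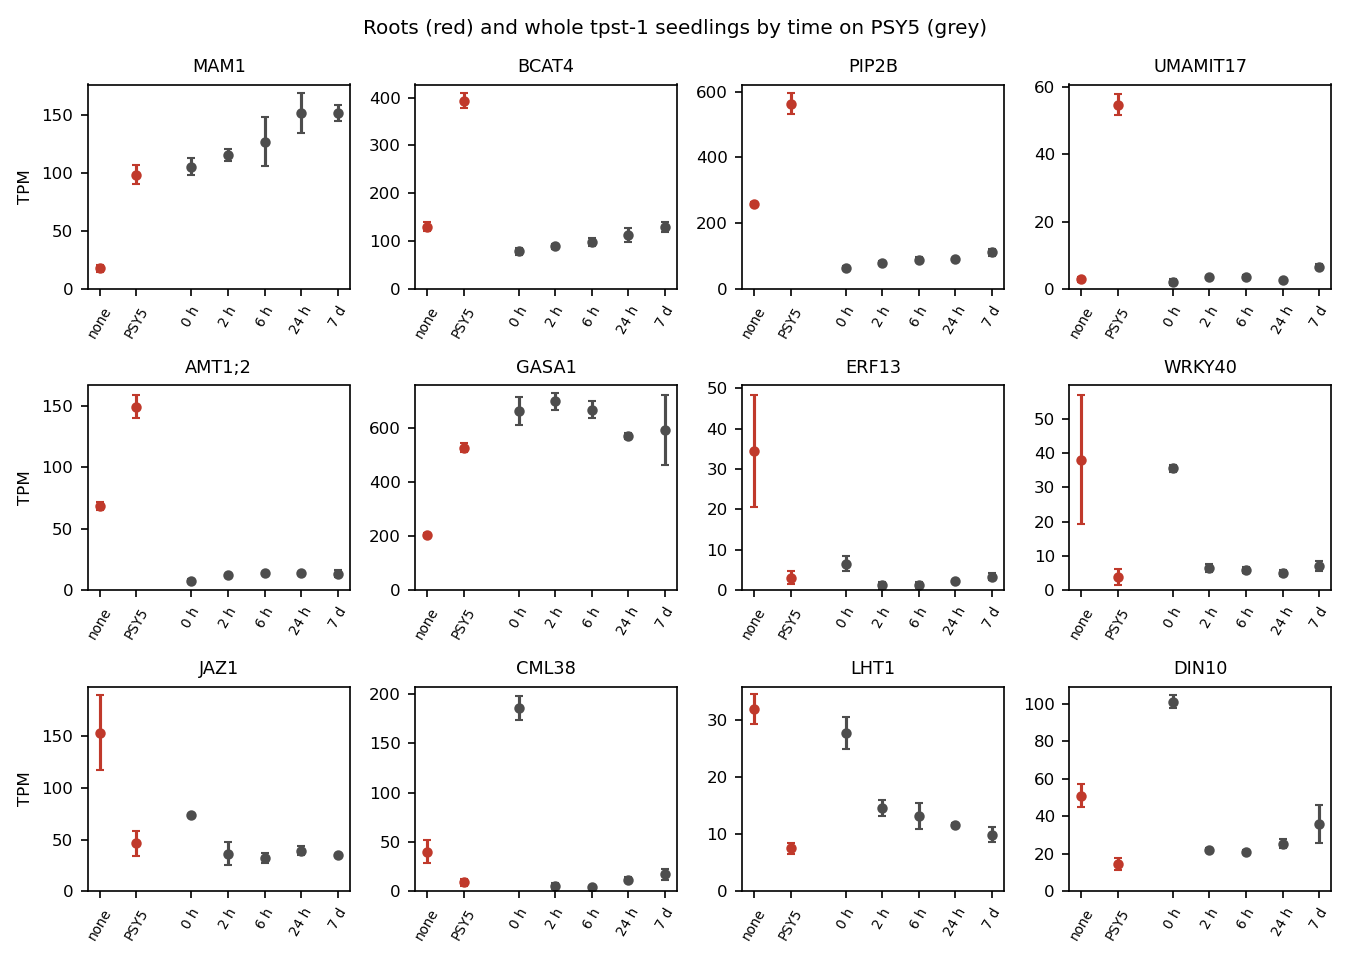
Level of 12 genes (mean ± SD, TPM, n = 3 per group) in tpst-1 roots without and with PSY5 and in tpst-1 seedlings from 0 h to 7 d of PSY5, with time points evenly spaced. UMAMIT17 was at 2.92 ± 0.762 and 54.7 ± 3.12 TPM in the root groups and at 6.74 ± 0.728 TPM in seedlings at 7 d.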

How the data were processed

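RNA of Arabidopsis roots, shoots and seedlings was sequenced, and each library's file lists 34262 features with a TPM value and a read number. Per the file headers, the deposited TPM values are levels scaled by library and by an effective length per feature, and the deposited read numbers are estimated counts that need not be whole. The labels name no program for this step. The build was TAIR10, per the submitters' processing notes, and the labels' protocols name 2 library kits, each with its own instrument, without saying which sample had which. Symbols came from RefSeq's TAIR10.1 annotation, which 32548 of the 34262 IDs matched.

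Expected counts were rounded and tested with edgeR 4.0.16 (quasi-likelihood test, TMM scaling) in R 4.3.3. Genes needed a TPM of 1 in 3 libraries (4 for shoots), and adjusted p values are Benjamini-Hochberg over all tested genes with a threshold of 0.05. Root groups (tpst-1, PSY5-treated, receptor mutant) shared 1 fit. So did all shoot groups, and so did all seedling time points. The difference between roots and shoots was fitted on all root and shoot libraries. DESeq2 1.42.0 and limma 3.58.1 on log2(TPM + 1), other scalings and filters, the compared groups alone and each library left out were the alternatives. On simulated data of the root comparison with 19958 genes, 50 genes were changed at each fold size. There 44% of 1.5-fold, 76% of 2-fold and 98% of 4-fold changes were recovered, and 2.47% of calls were false. The simulated spread depended on the level of a gene alone and held no order shared by replicates. The 2.47% is therefore no error rate for the reported calls. Promoters were read from TAIR10.1.

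Named genes were the 15 largest rises and falls with groups that do not overlap and a mean of at least 5 TPM in 1 group, up to 5 called members per list with the smallest adjusted p, the peptide and receptor genes, and the 10 most abundant called genes; others are marked where they appear. The members, lists and rules were chosen with earlier results of these data known. Near-identical or closely related copies (PIP2B and PIP2;3, CYP79F1 and CYP79F2, FRO4 and FRO5, AT5G50640 and AT5G50650) can exchange reads, and so their values are uncertain.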

Additional observations from a re-analysis of the deposited data

Results flagged for a closer look

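The response to PSY5 differed between roots and shoots in 767 genes by an edgeR interaction test, and the genes with the greatest rises and falls in roots that passed it are given here as root minus shoot differences of the log2 change. TPPH differed by 5.84 ± 0.55 (adjusted p = 2.01e-07), with changes of 5.47 in roots and -0.23 in shoots. UMAMIT17 differed by 4.11 (adjusted p = 2.88e-09), OCT1 by 4.61 (adjusted p = 0.00498), AT1G62510 by 4.24 (adjusted p = 0.00143) and MAM1 by 1.94 (adjusted p = 6.49e-05). OCT1 was too low to be tested in shoots alone. Among the falls, AT3G46880 differed by -6.22 (adjusted p = 0.048), DIR1 by -4.13 (adjusted p = 0.0333), ASN1 by -3.62 (adjusted p = 0.00504) and AT2G43620 by -4.74 (adjusted p = 0.000488). AT4G22470 fell in roots (-4.44) and rose in shoots (2.57, adjusted p = 0.0181), a difference of -7.04 (adjusted p = 0.000797). AT3G46880 and DIR1 had 0 and 1.00 reads over the treated roots, so their fitted differences are no bound.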

How the results depend on the processing

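Of 237 named genes with a test, 207 kept their call and direction in the settings run and 30 changed call or sign in at least 1. The 3035 root calls became 1871 with DESeq2 and ranged from 2384 to 2996 with each library left out; for receptor loss DESeq2 gave 1866. Treated roots against those labelled tpst/psyr1,2,3 (107 calls) gave 17 with limma, 253 with no filter, and 47 (without tpst/psyr1,2,3 replicate 2) to 141 (without PSY5 replicate 1) with libraries left out. The shoot count of 1069 became 577 with limma (54.1% higher against 25.5%), 377 with the compared groups alone, and 546 (without PSY5 shoot replicate 2) to 1655 (without tpst-1 shoot replicate 2). Roots minus shoots (767) became 1227 with limma, 388 with those groups alone, and 465 (without tpst-1 root replicate 2) to 1012 (without tpst-1 shoot replicate 4). The change of gene PSYR3 turned to -0.00554, -0.00618 and -0.00356 with limma on pseudocounts of 1, 0.1 and 5, and ranged from -0.0805 to 0.0941 with libraries left out; that of gene TPST ranged from -0.204 to 0.107. Neither gene passed. The cause was not tested. Same-numbered root replicates correlated at -0.0419 to 0.0662 in their deviations, and differently numbered ones at -0.0921 to 0.0829. With 3 libraries per group, these values cannot show whether same-numbered replicates share more than a number. With the replicate number as a block 3158 genes were called, 2979 of them also called without it. Depth of 3.207 to 4.134 M reads limits genes near 1 TPM.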
